A study of Mus musculus with 6 samples.

Results

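The intestine recovers bile acids through a short chain of proteins. The genes of this chain were followed here in mouse colon tumours that differ in Dnmt1 genotype. The 8 genes were taken by name: Slc10a2 and Fabp6 for uptake and passage through the cell, Slc51a and Slc51b for export, Nr1h4 and Gpbar1 for sensing, and Nr0b2 and Fgf15 as targets of the sensor. Each was read from 1 probe set that the platform annotation gives to that gene alone, and all 8 are among the 19938 genes measured. Expression was measured on arrays in 6 tumours. The 3 control tumours came from Dnmt1chip/+; ApcMin/+ mice, with a hypomorphic and a wild-type allele of Dnmt1, the maintenance DNA methyltransferase. The 3 hypomethylated tumours came from Dnmt1chip/c; ApcMin/+ mice, in which a knockout allele (c) stands in place of the wild-type one. All animals thus shared the chip allele and ApcMin, a truncating Apc mutation that leads to intestinal tumours. They also shared a C57BL/6 and 129Sv4 hybrid background and dextran sodium sulfate, an agent that injures the colon, given at 2% (w/v) from the age of 6 weeks; tumours were collected when the mice were 20 weeks old. The question was how the Dnmt1chip/c tumours differ in expression from the controls. The name hypomethylated stands for this genotype, since expression arrays measure no methylation. Every cell of the mouse carries both Dnmt1 alleles. A change in tumour cells and a change in the cells around them therefore cannot be told apart by the genotype. No label says that tumours of 1 group came from separate mice. Their descriptions carry a common number for the hypomethylated tumours and another for control replicates 1 and 2, so p-values cover the spread between these tumours, which may be smaller than that between mice.

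In the ileum, bile acids enter the enterocyte through the apical sodium-dependent transporter encoded by Slc10a2, are bound in the cytosol by the carrier protein of Fabp6, and leave across the basolateral membrane through a heteromer of the Slc51a and Slc51b products, OSTα and OSTβ. Inside the cell they activate the nuclear receptor FXR, the product of Nr1h4, which induces the exporter genes, Fabp6, the corepressor gene Nr0b2 (SHP) and the hormone gene Fgf15, whose product lowers bile acid synthesis in the liver. TGR5, encoded by Gpbar1, senses bile acids at the surface of other cells, among them enteroendocrine cells and macrophages. The colon has little of the ileal uptake system and meets bile acids that bacteria have modified; its epithelium expresses FXR and the exporter.

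FXR binds, with its partner RXR, best to an inverted repeat of a short element with 1 base between the copies, the IR-1 motif AGGTCANTGACCT. RefSeq start sites of the GRCm38.p6 assembly gave a promoter for 7 of the 8 genes, all but Fgf15, and the 250 bases before the start were searched. The motif reads the same on both strands. The promoters of 3 members held IR-1-like stretches with at most 3 mismatches among the 12 fixed letters, a limit chosen after the sequences had been seen. They are shown because they include both exporter genes, which rose, and Fabp6, which did not pass the test. Capitals mark the IR-1-like stretches.
Slc51b, chr9:65422774-65423023, minus strand: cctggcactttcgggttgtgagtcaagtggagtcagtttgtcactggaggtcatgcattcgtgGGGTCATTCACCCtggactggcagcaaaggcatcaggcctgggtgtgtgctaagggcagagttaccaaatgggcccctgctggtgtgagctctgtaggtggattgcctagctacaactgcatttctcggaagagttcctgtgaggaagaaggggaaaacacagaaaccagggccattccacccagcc
Slc51a, chr16:32487880-32488129, minus strand: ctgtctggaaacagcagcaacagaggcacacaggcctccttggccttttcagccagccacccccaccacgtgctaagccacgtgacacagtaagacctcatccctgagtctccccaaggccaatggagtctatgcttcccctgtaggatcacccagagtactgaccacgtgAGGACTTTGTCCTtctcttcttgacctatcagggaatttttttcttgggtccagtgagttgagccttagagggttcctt
Fabp6, chr11:43601563-43601812, minus strand: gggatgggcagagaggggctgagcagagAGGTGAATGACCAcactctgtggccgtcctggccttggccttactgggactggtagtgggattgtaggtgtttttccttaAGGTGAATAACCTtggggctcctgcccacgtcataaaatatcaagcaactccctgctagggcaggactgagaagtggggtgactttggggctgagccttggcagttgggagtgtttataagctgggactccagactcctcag
The stretch in Slc51b, GGGTCATTCACCC, and that in Slc51a, AGGACTTTGTCCT, each had 3 mismatches, a closeness found in 9.63% of 32851 mouse promoter windows of this length. Fabp6 had a pair of matches, AGGTGAATGACCA and AGGTGAATAACCT, with 2 mismatches each, a closeness found in 0.959% of the windows. Without mismatch, the single element AGGTCA stood on either strand in 14% of all windows and in those of Slc51a, Slc51b and Nr1h4, at places that no IR-1-like stretch overlapped. The promoters of Nr1h4, Nr0b2, Gpbar1 and Slc10a2 had no IR-1-like stretch in this window. Slc10a2 held the CDX motif GCAATAAA, searched on both strands and present in 0.871% of windows, and no member held the LRH-1 motif TCAAGGTCA with up to 1 mismatch, found on either strand in 6.35%. CpG dinucleotides are where mammalian DNA is methylated. There were 5 in Nr1h4, 4 in Slc10a2, 3 each in Slc51a, Slc51b and Nr0b2, 2 in Fabp6 and 1 in Gpbar1, against a median of 6 over all windows, of which 50.4% had more than Nr1h4 and 81.2% more than Gpbar1. No methylation was measured at any of them here, and a letter match does not show that a factor binds.

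Of the 8 bile acid genes 3 rose in the hypomethylated tumours and none fell: the exporter subunit gene Slc51b, the receptor gene Nr1h4 and, to a smaller extent, the other exporter subunit gene Slc51a. Genes passed at an adjusted p under 0.05 in limma, a linear model with variances moderated across all genes, with Benjamini-Hochberg adjustment over all 19938. Of all genes 32.0% passed in either direction, 10.7% as higher and 21.3% as lower, so a call by itself sets no gene apart in this comparison. Counted in either direction, 3 of 8 is near the share of 32.0% over all genes. All 3 were higher, where the share is 10.7%, but the members were chosen with earlier results of these data known. The sizes varied widely: the median difference over the 8 members was 0.13 on the log2 scale, against -0.01 over all genes. Dnmt1 fell by 0.87 ± 0.06 (SE) in the same tumours (limma adjusted p = 3.13e-04). Values are taken as log2, and each probe set was deposited with its median over the tumours set to 0, which leaves differences but no level. A gene that the tumours barely express therefore looks the same as a steadily expressed one, and colon epithelium could not be checked by marker levels, only by marker differences.

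**Figure D1:**
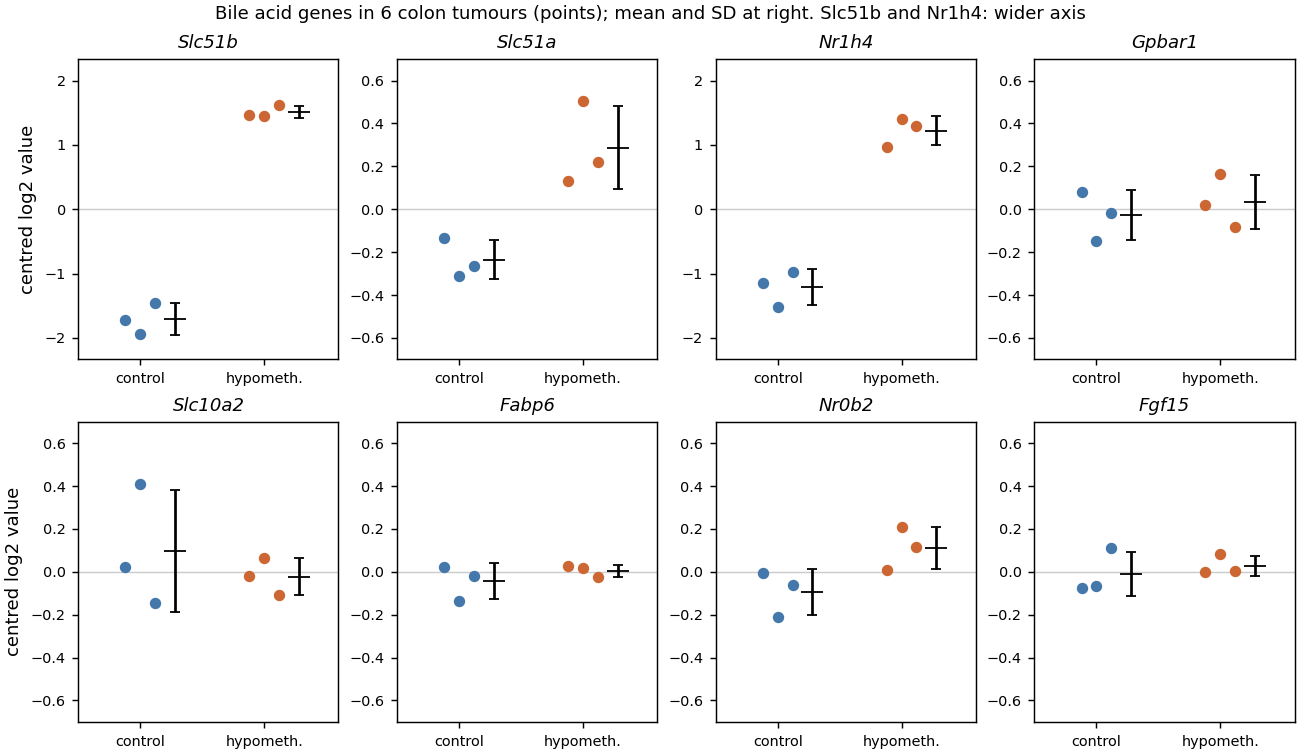
Centred log2 values (vertical axes) of the 8 bile acid genes in the 3 control tumours (blue points) and 3 hypomethylated tumours (orange points), with the mean and SD of each group beside its points. Slc51b and Nr1h4 are on a wider axis than the others; the groups stand apart for Slc51b, Nr1h4 and Slc51a, narrowly for Nr0b2, and overlap for Slc10a2, Fabp6, Gpbar1 and Fgf15.

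Slc51b encodes OSTβ, the single-pass subunit that the exporter needs to reach the membrane. Its centred log2 values were -1.72, -1.95 and -1.46 in control replicates 1, 2 and 3, and 1.47, 1.46 and 1.62 in hypomethylated replicates 1, 2 and 3. The groups lay far apart, with a gap of 2.91 between the highest control and the lowest hypomethylated tumour. The means were -1.71 ± 0.24 (SD, n = 3) and 1.52 ± 0.09 (SD, n = 3), a difference of 3.22 ± 0.12 (SE) on the log2 scale or 9.33-fold (limma adjusted p = 5.04e-05). This was the 30th largest increase of all genes measured. The 3 hypomethylated tumours differed little among themselves, and control replicate 2 was the lowest tumour.

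Slc51a encodes OSTα, the multi-pass subunit of the same exporter. It had centred values of -0.13, -0.31 and -0.26 in controls and 0.13, 0.50 and 0.22 in hypomethylated tumours. The groups did not overlap, but the gap was only 0.26. Slc51a rose by 0.52 ± 0.11 (SE), 1.44-fold (limma adjusted p = 0.00961). It did not reach 2-fold, and its difference ranged from 0.41 to 0.60 when 1 tumour was left out or the normalization or fit was changed.

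The subunit genes therefore rose by unequal amounts. The value of Slc51b minus that of Slc51a in the same tumour was -1.58, -1.64 and -1.19 in the controls and 1.34, 0.95 and 1.40 in the hypomethylated tumours. The mean of this within-tumour difference was 2.70 log2 units higher in the hypomethylated tumours. A two-sided exact permutation test gave p = 0.1, and 3 against 3 tumours allow none smaller. The pair was chosen with the values known, so this p adds nothing to the differences of the single genes. Probe sets of different genes can compress changes to different extents, and what part this had was not tested.

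Nr1h4, the gene of the bile acid receptor FXR, had centred values of -1.15, -1.52 and -0.97 in controls and 0.97, 1.41 and 1.29 in hypomethylated tumours. All hypomethylated tumours were above all controls, with a gap of 1.94. The means were -1.21 ± 0.28 (SD, n = 3) and 1.22 ± 0.23 (SD, n = 3), a rise of 2.43 ± 0.17 (SE) or 5.41-fold (limma adjusted p = 2.94e-04), the 81st largest increase. Control replicate 2 was again the lowest tumour, and hypomethylated replicate 2 the highest. The exact permutation tests of Nr1h4, Slc51a and Slc51b each gave the smallest p possible, 0.1.

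Gpbar1, the gene of the surface receptor TGR5, did not follow Nr1h4. Its centred values were 0.08, -0.15 and -0.02 in controls and 0.02, 0.17 and -0.08 in hypomethylated tumours. The groups overlapped, and the difference of 0.06 ± 0.09 (SE) had a 95% interval from -0.15 to 0.27 (limma adjusted p = 0.658). A change of 2-fold in either direction lies outside this interval, provided that the probe set was above the array's background, which the values do not show.

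Of the members that FXR is known to induce, the exporter genes rose, as given above, while Nr0b2, Fgf15 and Fabp6 did not pass the test. Nr0b2, the gene of the corepressor SHP, had centred values of -0.01, -0.21 and -0.06 in controls and 0.01, 0.21 and 0.12 in hypomethylated tumours. Its groups did not overlap, by a gap of only 0.02, and of all genes 46.4% had groups that did not overlap, 17.9% with the hypomethylated tumours above and 28.5% with them below. The difference was 0.20 ± 0.08 (SE), 1.15-fold (limma adjusted p = 0.0974). It passed under quantile normalization, with a difference of 0.25 (limma adjusted p = 0.0388). Fgf15, the ileal hormone gene, had centred values of -0.07, -0.07 and 0.11 in the controls and -0.0021, 0.08 and 0.0021 in the hypomethylated tumours. These groups overlapped, with a difference of 0.04 ± 0.07 (SE) and a 95% interval from -0.13 to 0.20 (limma adjusted p = 0.731). The values do not show whether the probe sets of Nr0b2, Fgf15 and Fabp6 were above the array's background.

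Set beside the receptor in the same tumours, Nr0b2, Fgf15 and Slc51a differed between the groups by less than Nr1h4, and Slc51b by more. A probe set at the array's background would also differ little, and the values hold no level to check this. Nr1h4 minus Nr0b2 went from a mean of -1.12 ± 0.20 (SD, n = 3) in the controls to 1.11 ± 0.13 (SD, n = 3) in the hypomethylated tumours. For Nr1h4 minus Fgf15 the means were -1.20 ± 0.22 and 1.19 ± 0.19 (SD, n = 3). These shifts were 2.23 and 2.40 log2 units. Nr1h4 minus Slc51a shifted by 1.91, and Nr1h4 minus Slc51b the other way, by -0.79, from a mean of 0.49 ± 0.07 to -0.30 ± 0.23 (SD, n = 3). Each of the 5 pairs of members compared, with Slc51b and Slc51a among them, had an exact permutation p = 0.1, two-sided, which is also the value adjusted over the 5 pairs. The pairs were chosen with the values known, so this p adds nothing to the differences of the single genes.

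The uptake and carrier genes showed no change that passed. Slc10a2, the sodium-dependent uptake transporter, had centred values of 0.02, 0.41 and -0.14 in controls and -0.02, 0.06 and -0.11 in hypomethylated tumours. Control replicate 2 stood above the other tumours, and the groups overlapped. The difference was -0.12 ± 0.14 (SE), with a 95% interval from -0.44 to 0.21 (limma adjusted p = 0.579). Fabp6, the cytosolic carrier, had centred values of 0.02, -0.14 and -0.02 in the controls and 0.03, 0.02 and -0.03 in the hypomethylated tumours. All 6 tumours lay close together, and the difference was 0.05 ± 0.06 (SE), with a 95% interval from -0.10 to 0.20 (limma adjusted p = 0.603). Fabp6 is the member whose promoter, shown above, has the closest IR-1-like stretches.

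**Figure D2:**
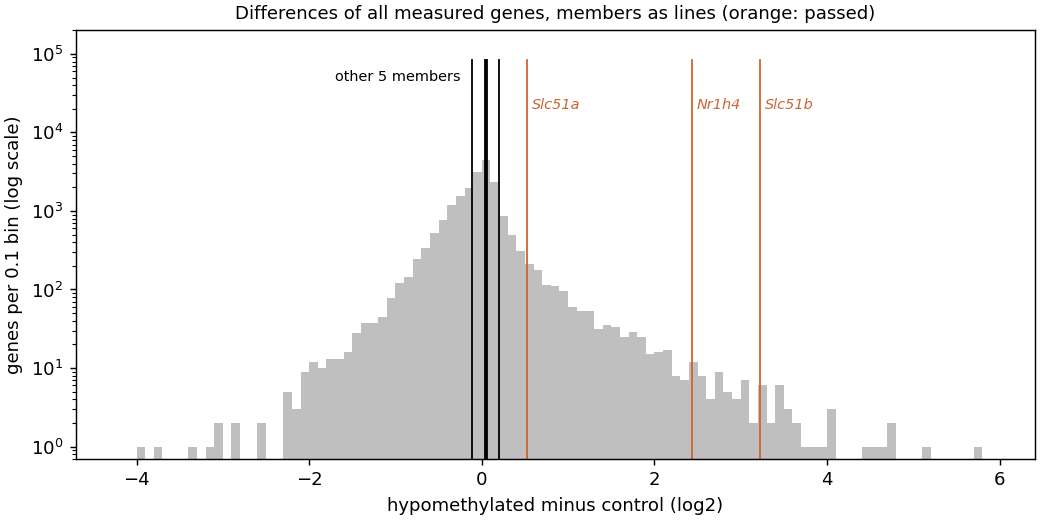
Number of genes (vertical axis, log scale) by log2 difference of hypomethylated minus control tumours (horizontal axis, bins of 0.1) over 19938 genes, with the 8 bile acid genes as lines. Nr1h4 (2.43) and Slc51b (3.22) lie in the thin upper tail, Slc51a (0.52) on its slope, and the other 5 members within the central peak.

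Among the 8 members the same tumours often held the extremes, and how often they did so over all genes was not counted. Control replicate 2 was the lowest of the controls for 6 of the 8 genes and the highest for 1, Slc10a2. Hypomethylated replicate 2 was the highest of its group for 6 of the 8. The calls of Slc51b, Nr1h4 and Slc51a held without either tumour, and without each of the other 4.

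The genes with the pattern most like that of Slc51b, the member with the largest difference, were sought by the Euclidean distance between centred log2 values over the 6 tumours. The nearest 5 of all genes were Nlrp9b, an inflammasome sensor gene (distance 0.42), Slc9a2, a sodium-proton exchanger gene (0.54), Muc4, a membrane mucin gene (0.58), Mep1b, the meprin beta protease gene of the brush border (0.68), and Syce1, a synaptonemal complex gene (0.72). Their differences ranged from 2.68 (Syce1) to 3.46 (Mep1b) on the log2 scale. Since centring removes the level, likeness here means little more than a similar size of the difference between groups.

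Beyond the 8 members, 63 further genes of bile acid transport, synthesis, sensing and breakdown were listed, and 57 of them were measured. Of these 15 rose and 11 fell, with a median log2 difference of 0.04 against -0.01 over all genes, where 10.7% rose and 21.3% fell. Without control replicate 1, only 9 rose. Calls went both ways among transporters, synthesis enzymes, receptors with partner factors, and detoxification enzymes, as the plot of these genes by list shows. For the receptors with partner factors and for the detoxification enzymes, the 1 lower call was lost with the replicate block.

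**Figure D3:**
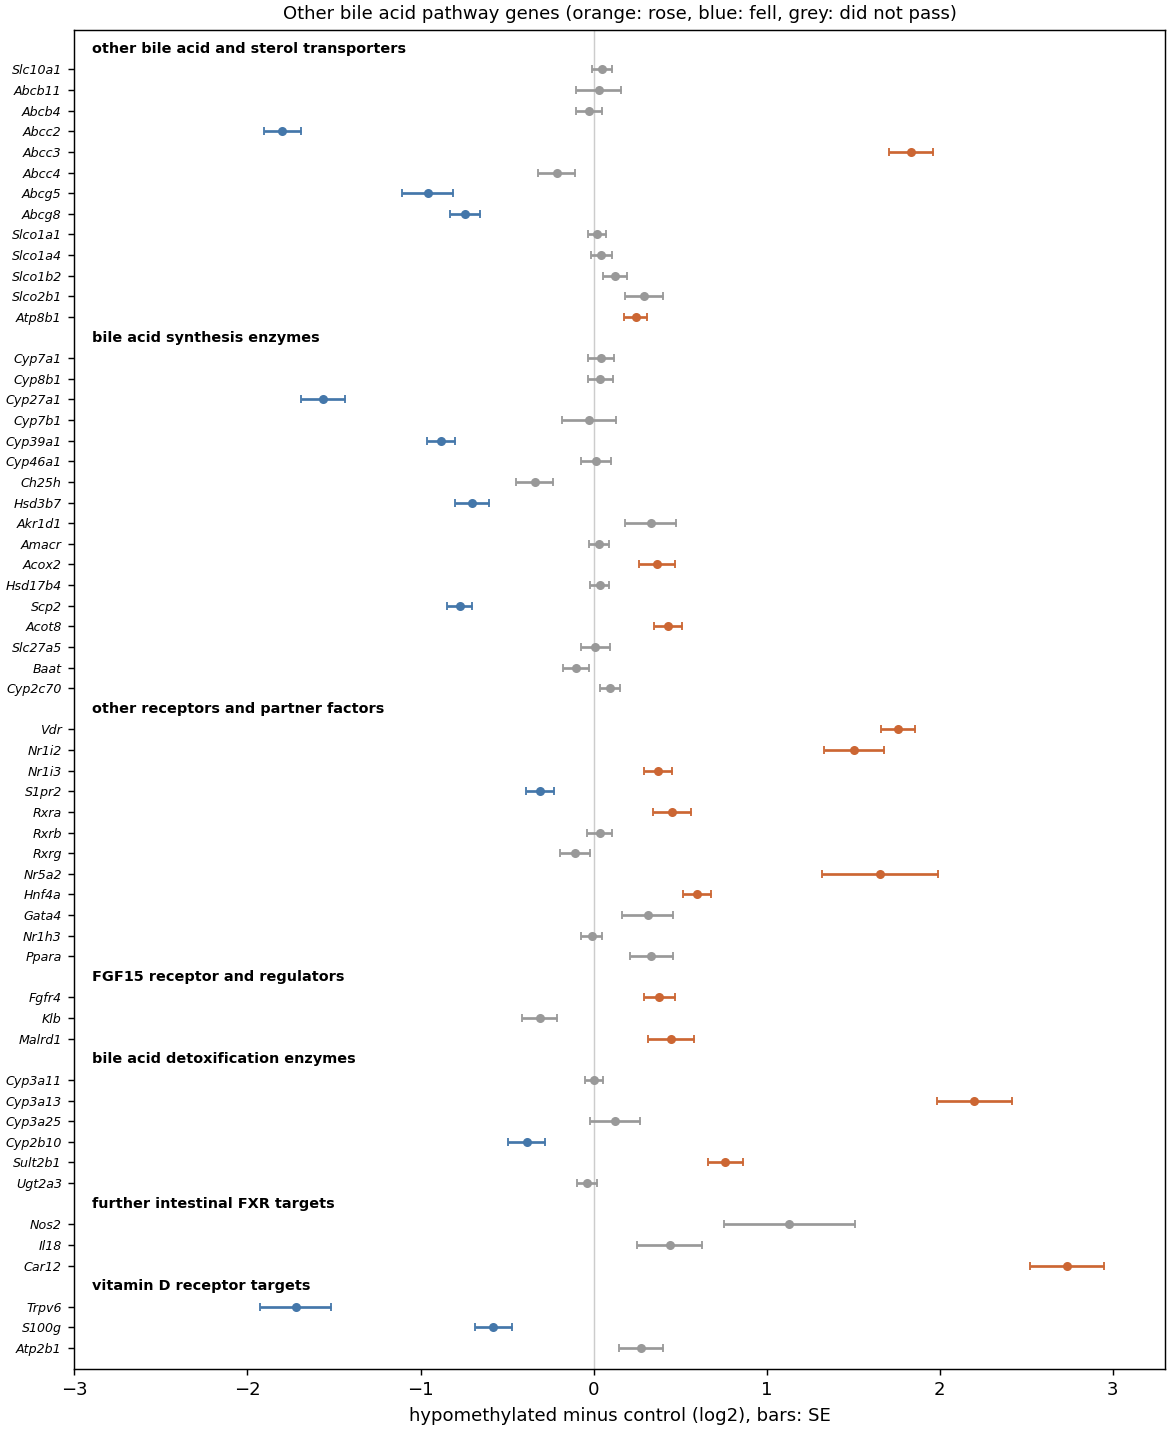
Log2 difference of hypomethylated minus control tumours (horizontal axis) with its SE for 57 further bile acid genes (vertical axis, grouped by list); orange genes rose, blue genes fell and grey genes did not pass. Abcc3 (1.84) and Abcc2 (-1.80) lie on opposite sides. Of 12 receptors and partner factors 6 rose and 1 fell, and of 17 synthesis enzymes 2 rose and 4 fell. Over all genes 10.7% rose and 21.3% fell.

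Among 13 further bile acid and sterol transporters 2 rose and 3 fell, against 10.7% and 21.3% of all genes. Abcc3, the gene of MRP3, which exports conjugated bile acids across the basolateral membrane, had centred values of -0.96, -1.01 and -0.72 in controls and 0.72, 1.17 and 0.92 in hypomethylated tumours. Abcc2, the gene of the apical conjugate pump MRP2, had 0.96, 0.75 and 1.04 in the controls and -0.75, -0.83 and -1.07 in the hypomethylated tumours. The groups stood apart in opposite directions: Abcc3 rose by 1.84 ± 0.13 (SE), 3.57-fold, and Abcc2 fell by 1.80 ± 0.11 on the log2 scale. Abcg5 and Abcg8, which together form the apical sterol pump and lie head to head in the genome, fell by 0.96 ± 0.15 and 0.74 ± 0.09. Atp8b1, a phospholipid flippase gene, rose by 0.24, a call lost without any 1 tumour except hypomethylated replicate 1. The hepatic uptake carrier Slc10a1 (0.05) and the canalicular pump Abcb11 (0.03) did not pass.

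Bile acid synthesis takes place mainly in the liver, with single steps in other tissues. Of 17 measured enzymes 4 fell and 2 rose, near the shares of 21.3% and 10.7% over all genes. Cyp27a1, the sterol hydroxylase that starts the alternative pathway and is also made by macrophages, had centred values of 0.72, 0.67 and 0.61 in controls and -0.61, -0.96 and -1.13 in hypomethylated tumours. Every hypomethylated tumour was below every control, and Cyp27a1 fell by 1.56 ± 0.13 (SE). The oxysterol hydroxylase gene Cyp39a1, the sterol carrier gene Scp2 and the dehydrogenase gene Hsd3b7 fell by 0.88, 0.77 and 0.70. The peroxisomal thioesterase gene Acot8 rose by 0.43, and the peroxisomal oxidase gene Acox2 rose by 0.37, a call lost without any 1 tumour except control replicate 2. Cyp7a1, the rate-limiting enzyme of the classical pathway in the liver, differed by 0.04 ± 0.08 (SE) and Cyp8b1, the enzyme for cholic acid, by 0.04 ± 0.07; neither passed. Macrophage markers were lower in 3 of 10 measured cases in the same tumours, against 21.3% of all genes. The lower markers numbered 7 without hypomethylated replicate 1 and 0 without any other single tumour. The part of macrophages in the fall of Cyp27a1 was not tested.

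Of 12 measured receptors and partner factors 6 rose and 1 fell, against 10.7% and 21.3% of all genes. Vdr, whose product also binds lithocholic acid, had centred values of -0.86, -0.86 and -0.76 in controls and 0.76, 1.13 and 0.90 in hypomethylated tumours. It rose by 1.76 ± 0.10 (SE), 3.39-fold. Nr1i2, the gene of the xenobiotic and bile acid sensor PXR, had -0.50 in its highest control and 0.50 in its lowest hypomethylated tumour, and rose by 1.50 ± 0.17, 2.84-fold. Both receptors thus stood apart between the groups, as did Nr1h4 and, with the hypomethylated tumours above, 17.9% of all genes. Nr5a2 (LRH-1), a factor that SHP represses, rose by 1.66 ± 0.34, Hnf4a by 0.60 ± 0.08, Rxra, the dimer partner of FXR, by 0.46 and Nr1i3 (CAR) by 0.37. S1pr2, a surface receptor for conjugated bile acids, fell by 0.31. The call of Nr1i3 was lost without control replicate 1, that of Rxra without control replicate 1, without control replicate 2 and without hypomethylated replicate 3, and that of S1pr2 without any 1 tumour except control replicate 2 and hypomethylated replicate 2.

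Target genes of these receptors did not move as 1 group. Of 3 measured further intestinal FXR targets, Car12, a carbonic anhydrase gene, had centred values of -1.48, -1.01 and -1.25 in controls and 1.01, 1.82 and 1.62 in hypomethylated tumours, and rose by 2.74 ± 0.22 (SE), 6.66-fold. Nos2, the inducible nitric oxide synthase gene, had -0.71, -0.20 and -0.38 in the controls and 1.65, 0.26 and 0.20 in the hypomethylated tumours, a difference of 1.13 ± 0.38 (limma adjusted p = 0.0592). Hypomethylated replicate 1 was far above the rest for Nos2, and without it the difference was 0.66 and passed (limma adjusted p = 0.0168). Il18, a cytokine gene of the epithelium, differed by 0.44 ± 0.19 (limma adjusted p = 0.125), and it passed without the same tumour, at 0.66 (limma adjusted p = 0.00373). Both genes also passed with array weights, at 1.24 and 0.53, and Nos2 with quantile normalization, at 1.08.

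Of 3 measured targets of the vitamin D receptor 2 fell, against 21.3% of all genes, while Vdr itself rose. Trpv6, the apical calcium channel gene, had centred values of 0.82, 0.75 and 0.54 in controls and -0.54, -1.10 and -1.41 in hypomethylated tumours, and fell by 1.72 ± 0.21 (SE). S100g, the gene of the calcium buffer calbindin-D9k, fell by 0.58 ± 0.11. Atp2b1, a calcium pump gene, differed by 0.27 ± 0.13 (limma adjusted p = 0.151), and passed at 0.41 without hypomethylated replicate 1.

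Among 6 measured detoxification enzymes 2 rose and 1 fell, against 10.7% and 21.3% of all genes. Cyp3a13 rose by 2.20 ± 0.22 (SE), 4.59-fold, and the sulfotransferase gene Sult2b1 by 0.76 ± 0.10. Cyp3a11, a hepatic PXR target, differed by 0.00 ± 0.05 and did not pass; probes of Cyp3a genes, which are close paralogues, may bind transcripts of each other. Cyp2b10, known in the liver as a CAR target, fell by 0.39, a call lost under quantile normalization and without any 1 tumour except control replicate 3 and hypomethylated replicate 1. On the side of FGF15 signalling, the receptor gene Fgfr4 rose by 0.38 and Malrd1, whose product raises FGF15 output, by 0.45, while the coreceptor gene Klb differed by -0.31 (limma adjusted p = 0.0569). The call of Fgfr4 was lost without control replicate 1 or control replicate 3. The call of Malrd1 was lost without any 1 tumour except hypomethylated replicate 1 and when its 2 probe sets were tested apart. Klb passed as lower without control replicate 1, at -0.42 (limma adjusted p = 0.0147).

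Markers of some cell types also differed between the groups. Their counts are to be set beside all genes, of which 10.7% rose and 21.3% fell. In bulk tumours, fewer cells of a type and less RNA per cell cannot be told apart. Of 9 absorptive colonocyte markers 7 rose, by 4.78 for Slc26a3 and 4.65 for Car4, and 1 fell (Slc9a3, -0.62), with a median difference of 3.52. None fell without hypomethylated replicate 3 or without any 1 control tumour. The colonocyte list had medians per tumour from -1.80 to -0.99 in the controls and from 0.95 to 1.85 in the hypomethylated tumours. General epithelial markers rose in 5 of 7 cases (3 without control replicate 1), and their median difference was 0.26, with Epcam at 0.06 and Vil1 at 1.02. Small intestinal enterocyte markers rose in 8 of 18 cases and fell in 1. When 1 tumour was left out, 6 to 8 of them rose, and 2 fell without hypomethylated replicate 1. Fabp2, Apob and Mep1b rose by 4.54, 3.26 and 3.46. Lct and Sis, the brush border disaccharidases of the small intestine, differed by 0.10 and 0.08 and did not pass, and Cubn, an ileal receptor for the intrinsic factor complex, fell by 1.43. Their part in the bile acid results was not tested.

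**Figure D4:**
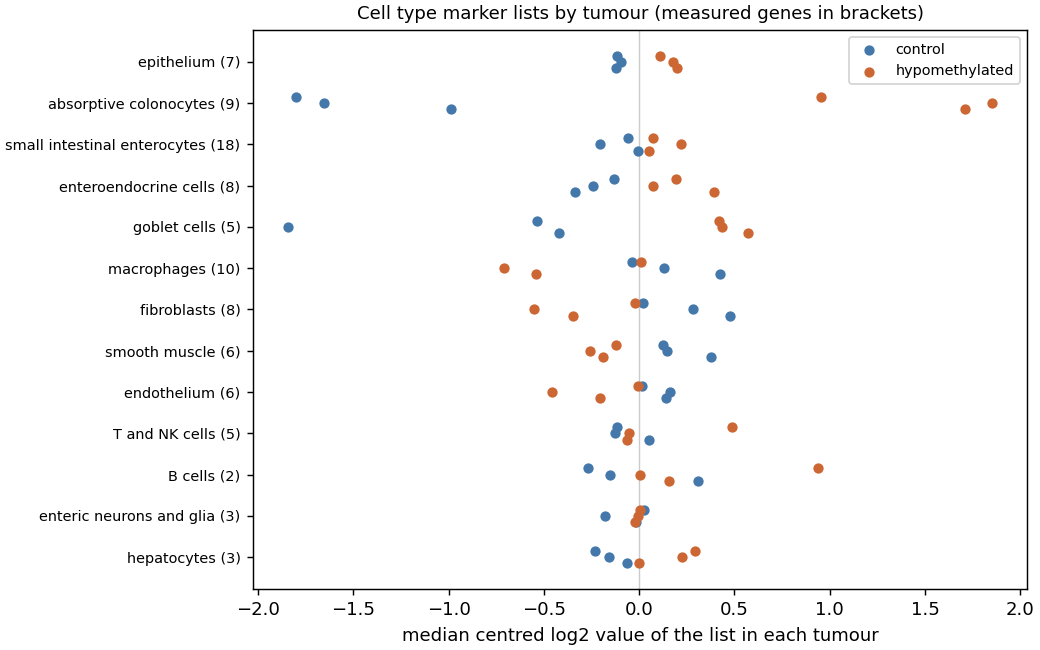
Median centred log2 value of each marker list (horizontal axis) in every tumour, with the lists and their number of measured genes on the vertical axis; blue points are control and orange points hypomethylated tumours. Colonocyte medians stand furthest apart (at most -0.99 against at least 0.95), and macrophage medians overlap between the groups.

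Of 8 enteroendocrine markers, which bear on Gpbar1, 4 rose and 1 fell: Gcg, the proglucagon gene of L cells, rose by 2.13 and Chgb by 1.15, while Pyy fell by 1.44; 2 rose without control replicate 2. Macrophage markers fell in 3 of 10 cases (7 without hypomethylated replicate 1, and 0 without any other 1 tumour) with a median of -0.54, and their list medians overlapped, from -0.04 to 0.43 in the controls and from -0.71 to 0.01 in the hypomethylated tumours. Over all genes 10.7% rose and 21.3% fell, the shares to set beside every marker count given here. The 3 of 10 macrophage markers are near the share of lower genes. Gpbar1 did not pass beside either the enteroendocrine or the macrophage markers. Goblet cell markers rose in 4 of 5, and in 2 without hypomethylated replicate 2 or hypomethylated replicate 3. Fibroblast, smooth muscle and endothelial markers fell in 4 of 8, 3 of 6 and 3 of 6 cases, with 1, 0 and 1 higher and medians of -0.60, -0.41 and -0.32; without 1 tumour the lower markers numbered 2 (hypomethylated replicate 3) to 7 (hypomethylated replicate 1) for fibroblasts, 2 to 3 for smooth muscle and 2 to 4 for endothelium. No T and NK cell marker (0 of 5) and no marker of enteric neurons and glia (0 of 3) passed in limma, with 1 and 0 at an unadjusted p under 0.05, and of these 8 genes none had groups that did not overlap. However, 1 T and NK cell marker passed as higher without hypomethylated replicate 2 or without hypomethylated replicate 3, and 1 neuron and glia marker as lower without control replicate 2. Of the B cell and hepatocyte markers 1 of 2 (Ms4a1, 0.40) and 1 of 3 (Ahsg, 0.51) rose, the first not without control replicate 1, and the hepatocyte gene Alb differed by 0.41 without passing.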

How the data were processed

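Total RNA of 6 colon tumours was biotin-labelled and hybridised to arrays, per the labels' protocols; sample descriptions name the MoGene-1_0-st-v1 type. The deposited values, taken as log2, come as a single table of 28856 probe sets. No source used here gives the log base, array normalization or summary method, and every fold rests on base 2. Each of the 28856 probe sets has a median over the 6 arrays within 1e-06 of 0.

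Probe sets with exactly 1 gene symbol (21789) took their names from the platform annotation; Entrez numbers tied 21698 of them to RefSeq (GRCm38.p6) and changed 0 symbols. They were averaged to 19938 genes; 1621 probe sets with several symbols and 5446 with none were not used. Groups follow the titles. limma 3.58.1 (lmFit, eBayes without trend, 3.02 prior degrees of freedom; R 4.3.3) was fitted on all 6 tumours, two-sided, with Benjamini-Hochberg adjustment. No filter on low values was used, since centred values hold no level, so every member entered the test. The script was tested on simulated data. Arrays have no sequencing depth; their number limits the precision.

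The members and all lists were chosen with earlier results of these data known. Named were all members, called genes of the pathway lists, all genes of lists of 4 or fewer, up to 3 markers per cell type by p, and the 5 genes nearest to Slc51b; Slc10a1, Abcb11, Cyp7a1, Cyp8b1, Cyp3a11, Epcam, Lct, Sis, Fabp2, Alb and some other markers were named after their values were seen. Alternatives were the replicate number as a block, quantile normalization, array centring, array weights, robust eBayes, other thresholds, single probe sets and leaving out each tumour. Of the 63 pathway list genes 57 are reported here.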

Additional observations from a re-analysis of the deposited data

How the results depend on the processing

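The calls of Slc51b, Nr1h4 and Slc51a held in every alternative except that Slc51a (0.52) is not called where at least 2-fold is asked. Members called numbered 3 without each single tumour, and 4 under quantile normalization and at an adjusted p under 0.1, Nr0b2 being the addition (0.25 and 0.20). None was called lower in any alternative; in limma on all tumours no member with a negative difference had an unadjusted p under 0.05. Whether the replicate numbers of the titles pair the tumours is not stated. Same-numbered deviations from the group means correlated at -0.29, -0.31 and -0.22, and differently numbered ones at 0.05 to 0.29. With 3 tumours per group these correlations constrain one another, so they cannot decide it. With the replicate block limma called 4257 genes and the same 3 members, and 10 pathway genes as higher and 9 as lower. Over all genes 6380 were called; leaving out 1 tumour gave 4199 to 6593. The count was 3511 at an adjusted p under 0.01 and 777 at 2-fold or more. Pathway genes called higher were 9 to 20 without 1 tumour, 9 at an adjusted p under 0.01 and 6 at 2-fold or more; those called lower were 9 to 11, and 3 at 2-fold or more. Genes called lower over the table were 2714 with the replicate block against 4256. Without a level or detection call, differences of weakly expressed members cannot be told from values at the array's floor.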
